A study of Mus musculus with 6 samples.

Results

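The lymphocyte-attracting chemokine axes of 4 receptors were followed in whole B16-F10 tumors: CXCR3, CXCR4, CXCR5 and CXCR6. The 10 genes were taken by symbol from a deposited table of 21358 entries, as 6 ligand genes and 4 receptor genes. All 10 genes were found in the table. The ligand genes were *Cxcl9*, *Cxcl10* and *Cxcl11* (ligands of CXCR3), *Cxcl12* (of CXCR4), *Cxcl13* (of CXCR5) and *Cxcl16* (of CXCR6).

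B16-F10, a mouse melanoma line positive for the antigen gp100, was grown under the skin of C57BL/6 mice. All mice had received total body irradiation and then an intravenous adoptive cell transfer (ACT) of splenocytes from pmel-1 mice, whose CD8 T cells carry a transgenic T cell receptor for gp100. These splenocytes had been cultured with gp100 peptide and IL-2 before transfer. The ACT + IL-2 group received human recombinant IL-2 into the peritoneum on consecutive days of each cycle, and the ACT + NKTR-214 group received NKTR-214, IL-2 with releasable polyethylene glycol chains, intravenously once per cycle. Tumors were taken at day 12, from 3 mice per group, and each gave 1 library. No tumor without a cytokine was analysed here, so every comparison is between the cytokine regimens. These differ in dose, route and schedule as well as in the cytokine, and these parts cannot be told apart.

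Chemokines are small secreted proteins that direct migrating leukocytes, and their receptors are G protein-coupled receptors of the cell surface. CXCR3 is known from activated T cells and NK cells, and its ligands are induced by interferon-γ in many cell types. CXCL12 is made mainly by stromal cells and retains CXCR4-bearing cells, while CXCL13 draws CXCR5-bearing B cells and follicular helper T cells into lymphoid follicles. CXCL16 is a transmembrane chemokine of macrophages and dendritic cells that can be shed from the membrane, and CXCR6 is carried by effector and tissue-resident T cells.

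The deposited values are FPKM (fragments per kilobase of exon, relative to all mapped fragments), which correct for gene length. Levels of different genes, and the size of ratios between them, depend on the gene lengths used. Those lengths are not given in the sources used here. Comparisons of the same gene between the groups do not depend on them. The step sizes of low FPKM values correspond to 20900000 to 24600000 reads per library. The groups were compared with limma on log2(FPKM + 1), with Benjamini-Hochberg adjustment over the 14172 genes with a mean of at least 0.1 FPKM, and an adjusted p under 0.05 was called. In bulk tumor RNA, more cells of a type and more RNA per cell cannot be told apart. The T cell markers differed between the groups in all 8 genes listed, where 29.0% of all genes tested were called in either direction. Their summed levels were 10.8 to 27.1 FPKM in ACT + IL-2 and 145 to 317 FPKM in ACT + NKTR-214. ACT + IL-2 replicate 1 had the highest T cell sum of its group, ACT + NKTR-214 replicate 3 had the lowest of its own, and ACT + IL-2 replicate 2 had the lowest sum of all FPKM values (176419.8, against 217581.4 to 246513.7 in the other libraries).

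Of the 10 chemokine axis genes, 7 were higher in ACT + NKTR-214 and 0 were lower, where 29.0% of all genes tested were called in either direction, 20.7% higher and 8.28% lower. At an unadjusted p under 0.05 the counts of the 10 genes were likewise 7 and 0. The genes that rose were the receptor genes *Cxcr3*, *Cxcr4* and *Cxcr6* and the ligand genes *Cxcl11*, *Cxcl12*, *Cxcl13* and *Cxcl16*. The ligand genes *Cxcl9* and *Cxcl10* and the receptor gene *Cxcr5* did not pass. In each of the 7 genes that rose, the lowest ACT + NKTR-214 tumor lay above the highest ACT + IL-2 tumor, as it did in 27.1% of all genes tested, with the opposite order in 15.3%. All 10 genes passed the filter on low values, but *Cxcl13* did so only through ACT + NKTR-214. The median log2 fold change was 2.00 over the 4 receptor genes and 0.94 over the 6 ligand genes, against 0.045 over all genes tested. Without *Cxcl13*, which had to differ to pass the filter, 6 of 9 genes were higher and the median of the 5 other ligand genes was 0.81, and its own call is no support for a rise of the ligand genes. The share of calls that were higher among all genes depended on scaling, being 71.5% for FPKM as deposited, 45.1% with scaling to a common 75th percentile and 37.3% with quantile normalization. It was 50.1% without ACT + IL-2 replicate 2. The same 7 genes were called higher under both scalings. The calls rest on the variance limma shares across genes, and without that moderation only *Cxcl11* was called (adjusted p of 0.0465 to 0.158 over the 7 genes). Of all 14172 genes tested, the fit without moderation called 101 higher and 27 lower.

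**Figure D1:**
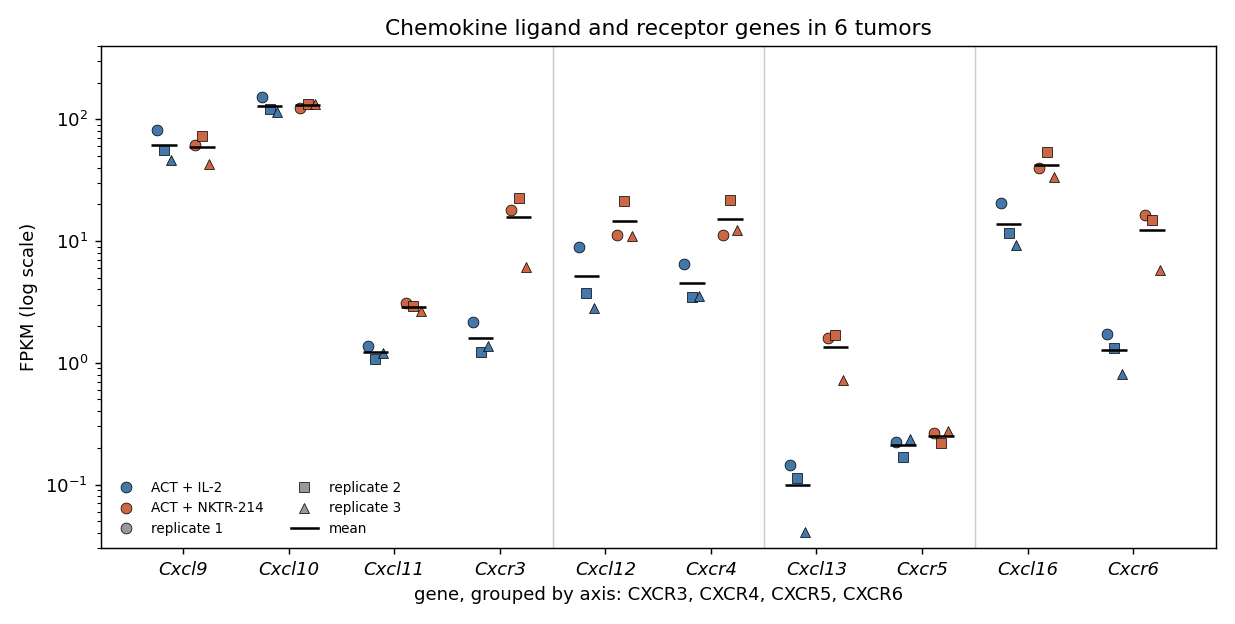
FPKM of the 10 genes (y axis, log scale) in each of the 6 tumors, grouped by axis along the x axis. Colors mark the groups, symbols the replicates and horizontal lines the mean of 3 tumors. The groups overlap in *Cxcl9*, *Cxcl10* and *Cxcr5* and are apart in the other 7 genes.

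*Cxcl9* and *Cxcl10* encode the interferon-inducible ligands of CXCR3 and lie with *Cxcl11* within 44.1 kb of chromosome 5. The sequences before the starts of *Cxcl9* and *Cxcl10* are shown because both genes are textbook targets of interferon-γ and neither passed the test, although *Ifng* did. They are the 250 bases before the annotated start, from RefSeq on GRCm38.p6, minus strand, at chr5:92328080-92328329 for *Cxcl9* and chr5:92348890-92349139 for *Cxcl10*. Capitals mark matches, on either strand, to the interferon-stimulated response element core (GAAA, any 2 bases, GAAA), the gamma-activated sequence TTCNNNGAA or 1 form of the NF-κB site (GGG, any 2 bases, TTTCC). Other forms of these sites were not searched.
Cxcl9: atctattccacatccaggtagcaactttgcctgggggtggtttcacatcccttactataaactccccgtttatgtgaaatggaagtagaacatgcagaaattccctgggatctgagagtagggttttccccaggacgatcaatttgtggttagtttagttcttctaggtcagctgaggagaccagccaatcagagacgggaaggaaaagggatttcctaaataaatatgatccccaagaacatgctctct
Cxcl10: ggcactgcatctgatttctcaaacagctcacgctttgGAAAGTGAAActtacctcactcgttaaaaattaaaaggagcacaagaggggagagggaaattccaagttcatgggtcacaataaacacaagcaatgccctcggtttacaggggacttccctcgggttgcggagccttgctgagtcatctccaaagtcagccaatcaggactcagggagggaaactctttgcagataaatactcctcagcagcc
The *Cxcl10* window held 1 match, GAAAGTGAAA, from 213 to 204 bases before the start, and the *Cxcl9* window held none. For both windows, the lack of a match says only that these letters are not in the window. Of 32536 distinct promoter windows of this length, 2.98% held the response element core, 7.04% the gamma-activated sequence and 1.4% the NF-κB form. Windows were found for 7 of the 10 genes, and *Cxcl10* was the only one of these 7 with a match to the letters searched.

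*Cxcl10* (chromosome 5, 92346638 to 92348889) was the highest of the 10 genes in every tumor. Its level in ACT + IL-2 was 152.0, 121.2 and 114.3 FPKM, here and below in the order of replicates 1 to 3, and in ACT + NKTR-214 it was 124.7, 134.5 and 134.5 FPKM. The ACT + NKTR-214 tumors lay within the range of the ACT + IL-2 tumors. Means were 129.2 ± 20.1 and 131.2 ± 5.67 FPKM (SD, n = 3 each), and the log2 fold change was 0.033 with a 95% interval of -0.34 to 0.40 (limma adjusted p = 0.915). Its sign turned with both other scalings. Of its exon bases, 5.91% also belong to *Art3* on the opposite strand, which had at most 5.06 FPKM.

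*Cxcl9* (chromosome 5, 92321347 to 92328079) was second of the 10 genes in every tumor of both groups. It had 81.9, 56.4 and 46.4 FPKM in ACT + IL-2 and 61.4, 73.5 and 42.7 FPKM in ACT + NKTR-214. The highest and the lowest value thus came from different groups and the ranges overlapped. Means were 61.55 ± 18.3 and 59.2 ± 15.5 FPKM (SD, n = 3 each), and the log2 fold change was -0.051 with an interval of -0.52 to 0.42 (limma adjusted p = 0.892). These intervals leave room for a change of either gene in either direction, and they end far below the changes of the CXCR3 receptor gene.

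*Cxcl11* (chromosome 5, 92359544 to 92365485) was the only one of the 3 CXCR3 ligand genes among the 10 that rose. The C57BL/6 strain carries a frameshift in this gene and is known to make no CXCL11 protein, and GENCODE accordingly lists it as a polymorphic pseudogene. Its RNA had 1.38, 1.08 and 1.21 FPKM in ACT + IL-2 and 3.09, 2.93 and 2.66 FPKM in ACT + NKTR-214. The tumors of each group lay close together and far below *Cxcl10*. The mean rose from 1.22 ± 0.151 to 2.89 ± 0.220 FPKM (SD, n = 3 each), or a log2 difference of 0.81 (SE 0.13, limma adjusted p = 0.00024). The values correspond to 39 to 52 reads per tumor in ACT + IL-2 and 100 to 121 in ACT + NKTR-214, a depth-scaled ratio of 2.37 (95% interval 1.93 to 2.93, counting error only). Of its exon bases in GENCODE, 41.7% also belong to *Gm2673* on the opposite strand, and the reads of such partners cannot be told apart without strand. *Gm2673* has no entry among the deposited values. The reads of *Cxcl11* were derived with an exon length of 1587 bases, against 3794 exon bases in GENCODE. The share of 41.7% need not hold for the gene model that was counted.

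*Cxcr3* (chromosome X, 101731535 to 101734269), the receptor gene, had 2.17, 1.22 and 1.37 FPKM in ACT + IL-2 and 18.01, 22.73 and 6.13 FPKM in ACT + NKTR-214. ACT + NKTR-214 replicate 3 stood well below the other tumors of its group and still above all ACT + IL-2 tumors. The ratio of means was 9.85, and the log2 fold change was 2.53 (interval 1.86 to 3.21, limma adjusted p = 2.1e-05). The CXCR3 axis combined a receptor gene that rose with high ligand genes, *Cxcl9* and *Cxcl10*, whose levels did not differ detectably.

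*Cxcl12* (chromosome 6, 117168535 to 117181367) encodes the stromal ligand of CXCR4. It had 9.01, 3.72 and 2.82 FPKM in ACT + IL-2 and 11.2, 21.2 and 11.1 FPKM in ACT + NKTR-214. ACT + IL-2 replicate 1 came close to the lower ACT + NKTR-214 tumors. The mean rose from 5.19 ± 3.35 to 14.5 ± 5.81 FPKM (SD, n = 3 each), or a log2 difference of 1.39 (SE 0.30, limma adjusted p = 0.00213). Without ACT + IL-2 replicate 2 the log2 fold change was 1.26 and the call was lost (limma adjusted p = 0.0767), and it was the only one of the 7 calls lost when a single tumor was left out.

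*Cxcr4* (chromosome 1, 128588199 to 128592293) had 6.46, 3.47 and 3.51 FPKM in ACT + IL-2 and 11.1, 21.9 and 12.3 FPKM in ACT + NKTR-214. As in *Cxcl12*, the highest tumors were replicate 1 of ACT + IL-2 and replicate 2 of ACT + NKTR-214. The mean rose from 4.48 ± 1.71 to 15.1 ± 5.91 FPKM (SD, n = 3 each), or a log2 difference of 1.54 (SE 0.24, limma adjusted p = 0.000143). *Cxcr4* was the highest of the 4 receptor genes in ACT + IL-2, and in ACT + NKTR-214 its range overlapped that of *Cxcr3*.

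*Cxcl13* (chromosome 5, 95956951 to 95961068), the B cell-attracting ligand gene, was near the limit of detection in ACT + IL-2. It had 0.144, 0.113 and 0.0411 FPKM there and 1.60, 1.69 and 0.724 FPKM in ACT + NKTR-214. The steps of the values correspond to 4, 3 and 1 reads in the ACT + IL-2 tumors and to 46, 48 and 20 reads in the ACT + NKTR-214 tumors. Summed, 8 and 114 reads gave a depth-scaled ratio of 13.3 (95% interval 6.51 to 31.5, counting error only). The ratio of mean FPKM, 13.5, was the largest of the 10 genes. Its log2 fold change was 1.06 (limma adjusted p = 4.2e-05) with the pseudocount of 1 and 2.81 with a pseudocount of 0.1, since low values are compressed by the larger one. *Cxcl13* passed the filter on low values only through ACT + NKTR-214. Its call, its ratio and its place among the 10 genes are therefore no support for a rise.

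*Cxcr5* (chromosome 9, 44511787 to 44561877), the receptor of CXCL13, stayed low in all tumors. It had 0.225, 0.167 and 0.238 FPKM in ACT + IL-2 and 0.264, 0.220 and 0.274 FPKM in ACT + NKTR-214, with overlapping groups. These values correspond to 10 to 14 and 14 to 17 reads per tumor, and the depth-scaled ratio of the summed reads was 1.21 (95% interval 0.77 to 1.91, counting error only). The log2 fold change was 0.050 with an interval of -0.13 to 0.23 (limma adjusted p = 0.699), and its sign turned with quantile normalization. A rise of *Cxcr5* on the scale of *Cxcl13* lay outside the counting interval, whereas ratios up to 1.91 lay within it.

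B cell markers were low in both groups. Of the 7 listed, 2 reached the mean needed for the test and 0 were called by limma in either direction (0 also at an unadjusted p under 0.05), with summed levels of 1.04 to 2.12 FPKM in ACT + IL-2 and 1.02 to 1.61 FPKM in ACT + NKTR-214. *Cr2*, which marks follicular B cells and follicular dendritic cells, had 0.0743 to 0.1055 FPKM in ACT + IL-2 and 0.0261 to 0.0475 FPKM in ACT + NKTR-214 and was too low to test. Among markers of lymph node stroma, *Ccl21a* was listed at 0 in all tumors, and the list sums were 0.152 to 0.258 and 0.166 to 0.604 FPKM.

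*Cxcl16* (chromosome 11, 70453983 to 70459984) was the most abundant of the 4 ligand genes among the 10 that rose. It had 20.6, 11.5 and 9.19 FPKM in ACT + IL-2 and 40.0, 53.4 and 33.8 FPKM in ACT + NKTR-214. The mean rose from 13.8 ± 6.02 to 42.4 ± 10.03 FPKM (SD, n = 3 each), or a log2 difference of 1.60 (SE 0.23, limma adjusted p = 8.1e-05). In ACT + NKTR-214 its highest tumor exceeded the lowest tumor of *Cxcl9*, so that the ranges of these ligand genes, apart in ACT + IL-2, overlapped. Within every tumor of both groups *Cxcl9* was still higher than *Cxcl16*. Of its exon bases, 18.3% also belong to *Zmynd15* on the opposite strand, which had 2.52 to 5.55 FPKM in ACT + IL-2 and 8.53 to 13.9 FPKM in ACT + NKTR-214. The part of such shared bases in the difference was not tested.

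*Cxcr6* (chromosome 9, 123806475 to 123811760) had 1.71, 1.32 and 0.810 FPKM in ACT + IL-2 and 16.4, 14.98 and 5.82 FPKM in ACT + NKTR-214. As in *Cxcr3*, ACT + NKTR-214 replicate 3 was the lowest tumor of its group. The mean rose from 1.28 ± 0.450 to 12.4 ± 5.76 FPKM (SD, each n = 3), a ratio of 9.71, and the log2 fold change was 2.46 (SE 0.28, limma adjusted p = 7.38e-06). *Cxcr3* and *Cxcr6* had the largest log2 fold changes of the 10 genes, and their intervals overlapped.

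**Figure D2:**
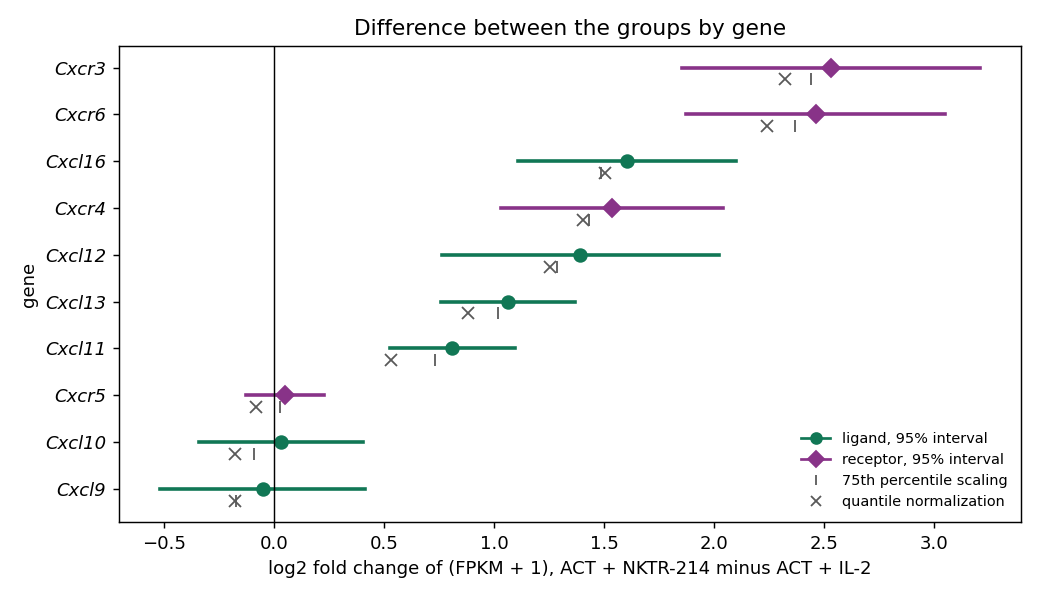
Log2 fold change of FPKM + 1 (x axis, ACT + NKTR-214 minus ACT + IL-2, 3 tumors each) for the 10 genes, with 95% intervals from limma as bars. Gray marks give the value with 75th percentile scaling or quantile normalization, and the intervals of *Cxcl9*, *Cxcl10* and *Cxcr5* include 0.

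In both groups the ligand genes *Cxcl10* and *Cxcl9* were the highest by FPKM, followed by *Cxcl16*. In ACT + IL-2 the order went on with *Cxcl12* and *Cxcr4*, which overlapped, then *Cxcr3*, *Cxcr6* and *Cxcl11*, of which each overlapped the next, and ended with *Cxcr5* and *Cxcl13*. In ACT + NKTR-214, *Cxcr3*, *Cxcr4*, *Cxcl12* and *Cxcr6* came next and each overlapped the next in level, followed by *Cxcl11*, *Cxcl13* and *Cxcr5*. The order of *Cxcr5* and *Cxcl13* in ACT + IL-2 rests on 10 to 14 and 1 to 4 reads per tumor, too few to tell their levels apart in a single tumor. Summed, the 4 receptor genes had 5.93 to 10.6 FPKM in ACT + IL-2 and 24.5 to 59.8 FPKM in ACT + NKTR-214, and the 6 ligand genes 173.9 to 265.0 and 225.4 to 287.2 FPKM.

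To compare receptors with ligands, the log2 ratio of (FPKM + 1) was taken within each tumor for 6 ligand-receptor pairs. It does not move with library scaling other than through the pseudocount. Pairs that share *Cxcr3* are not independent of each other. Each was compared with an exact two-sided permutation test, whose smallest p with 3 against 3 tumors is 0.1, so that no pair could pass 0.05. Values were adjusted over 16 ratios, the pairs and the marker ratios below.

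*Cxcr3* was higher relative to each of its ligand genes in all ACT + NKTR-214 tumors. In FPKM, *Cxcl9* was 37.8, 46.1 and 33.9 times as high as *Cxcr3* in the ACT + IL-2 tumors and 3.41, 3.23 and 6.95 times as high in ACT + NKTR-214. *Cxcl10* was 70.2 to 99.0 times as high as *Cxcr3* in ACT + IL-2 and 5.92 to 21.9 times in ACT + NKTR-214. The log2 ratio of *Cxcr3* to ligand was higher in ACT + NKTR-214 by 2.58 for *Cxcl9*, 2.50 for *Cxcl10* and 1.72 for *Cxcl11*, with no overlap between the groups (exact permutation p = 0.1 each, adjusted p = 0.133).

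The CXCR4 pair kept a ratio near 1. *Cxcr4* had 0.717 to 1.24 times the FPKM of *Cxcl12* in ACT + IL-2 and 0.998 to 1.11 times in ACT + NKTR-214. The log2 ratio differed by 0.15 with overlapping groups (exact permutation p = 0.6, adjusted p = 0.64), less than the spread within ACT + IL-2 (SD 0.33).

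*Cxcr6* was higher relative to its ligand gene in all ACT + NKTR-214 tumors. *Cxcl16* was 8.76 to 12.1 times as high as *Cxcr6* in ACT + IL-2 and 2.43 to 5.80 times in ACT + NKTR-214, so that the log2 ratio of receptor to ligand was higher by 0.86, with no overlap (exact permutation p = 0.1, adjusted p = 0.133). With a pseudocount of 0.1 in place of 1 the difference was 1.43.

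The CXCR5 pair is given as values only, since *Cxcl13* had 1 to 4 reads per ACT + IL-2 tumor and passed the filter on low values only through ACT + NKTR-214. *Cxcl13* had 0.641, 0.673 and 0.173 times the FPKM of *Cxcr5* in ACT + IL-2 and 6.08, 7.70 and 2.64 times in ACT + NKTR-214. The log2 ratio of receptor to ligand differed by -1.01, and by -2.62 with a pseudocount of 0.1.

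**Figure D3:**
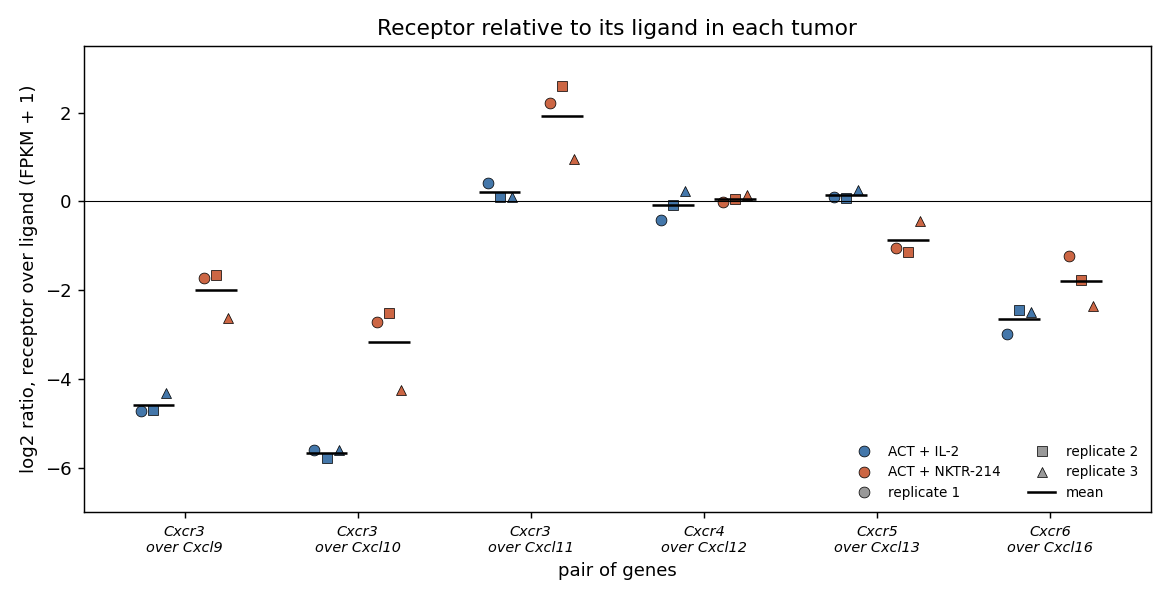
Log2 ratio of receptor to ligand, each as FPKM + 1 (y axis), within each of the 6 tumors for 6 pairs (x axis), with the mean of 3 tumors as a line. The ratio is higher in all 3 ACT + NKTR-214 tumors for 4 pairs, lower for *Cxcr5* over *Cxcl13* and overlapping for *Cxcr4* over *Cxcl12*. The *Cxcr5* pair is shown as values only, since *Cxcl13* passed the filter on low values only through ACT + NKTR-214.

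Each gene was also set against a marker of cells known to express it, since the T cell and macrophage markers were higher in ACT + NKTR-214. The outcome depended on the marker, so each ratio was also taken to every other marker of the same list, a comparison added after the data were seen. *Cd3e*, a T cell receptor complex gene, had 5.30, 1.97 and 1.99 FPKM in ACT + IL-2 and 51.7, 58.2 and 26.4 FPKM in ACT + NKTR-214, or a log2 difference of 3.53 (limma adjusted p = 3.6e-07). Relative to *Cd3e*, each of the 4 receptor genes was lower in every ACT + NKTR-214 tumor than in any ACT + IL-2 tumor. *Cxcr3* had 0.409 to 0.687 times the FPKM of *Cd3e* in ACT + IL-2 and 0.233 to 0.390 times in ACT + NKTR-214, and *Cxcr6* had 0.322 to 0.668 and 0.221 to 0.318 times. The log2 ratios to *Cd3e* were different by -0.99 for *Cxcr3*, -1.06 for *Cxcr6*, -1.99 for *Cxcr4* and -3.475 for *Cxcr5* (exact permutation p = 0.1 each, adjusted p = 0.133). For *Cxcr5*, which hardly varied, the ratio follows *Cd3e* itself. The receptor genes, *Cxcr4* among them, were not set against markers of other cells. The part of their RNA that came from T cells was not tested, so these ratios are not levels per T cell. Of the 8 T cell markers, 6 gave lower ratios without overlap for *Cxcr3*, *Cxcr4* and *Cxcr6*, and 8 did so for *Cxcr5*. The exceptions were *Cd5* and *Cd4*. Relative to *Cd5*, *Cxcr3* had 1.38 to 4.24 times its FPKM in ACT + IL-2 and 2.03 to 2.44 times in ACT + NKTR-214, with overlap. Relative to *Cd4*, the coreceptor gene of helper T cells, *Cxcr3* was higher, at 2.86 to 5.78 and 6.44 to 16.5 times its FPKM. The CD8 coreceptor gene *Cd8a* rose likewise, from 1.73 to 3.89 FPKM in ACT + IL-2 to 23.01 to 47.3 FPKM in ACT + NKTR-214.

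*Csf1r*, the growth factor receptor gene of monocytes and macrophages, had 38.8, 16.01 and 12.4 FPKM in ACT + IL-2 and 58.1, 83.5 and 51.98 FPKM in ACT + NKTR-214. All 7 macrophage and monocyte markers rose (20.7% of all genes tested did), with summed levels of 74.9 to 188 and 360 to 586 FPKM. *Cxcl16* overlapped between the groups relative to *Csf1r*, at 0.531 to 0.739 times its FPKM in ACT + IL-2 and 0.640 to 0.689 times in ACT + NKTR-214 (log2 ratio differing by -0.016, exact permutation p = 1, adjusted p = 1). This outcome depended on the marker. Of the 7 macrophage and monocyte markers, 1 gave a higher log2 ratio of *Cxcl16* without overlap (*Adgre1*, 0.605 to 0.827 and 1.06 to 1.18 times its FPKM), 4 gave a lower one and 2 overlapped, and as plain FPKM ratios 1 was higher, 3 were lower and 3 overlapped. *Cxcl9* and *Cxcl10* differed relative to *Csf1r*, their log2 ratios to *Csf1r* being -1.67 and -1.59 apart with no overlap (exact permutation p = 0.1, adjusted p = 0.133). Relative to all 7 markers *Cxcl9* was lower without overlap, and *Cxcl10* was so relative to 6 of 7. *Cxcl11* overlapped between the groups relative to *Csf1r* (difference -0.81, exact permutation p = 0.3, adjusted p = 0.369), and its log2 ratio was lower without overlap for 4 of the 7 markers and overlapped for 3, whereas its plain FPKM ratio was lower for 2 and overlapped for 5. The difference to *Csf1r* ran from -1.22 to -0.49 with 1 tumor left out. For *Cxcl13* the difference of log2 ratios was -0.56 with a pseudocount of 1 and 1.14 with 0.1, and its direction relative to *Csf1r* is therefore not given. With the pseudocount of 1, its log2 ratio was lower without overlap for 2 of the 7 markers and overlapped for 5, whereas its plain FPKM ratio was higher without overlap for 5 and overlapped for 2.

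*Cxcl12* was set against *Pdgfrb*, a fibroblast and pericyte receptor gene, which had 7.37, 3.96 and 3.92 FPKM in ACT + IL-2 and 7.95, 10.6 and 7.69 FPKM in ACT + NKTR-214. *Cxcl12* had 0.721 to 1.22 times its FPKM in ACT + IL-2 and 1.404 to 1.992 times in ACT + NKTR-214, a log2 ratio higher by 0.68 (exact permutation p = 0.1, adjusted p = 0.133). Of the 8 fibroblast and pericyte markers, 5 gave a higher log2 ratio without overlap and 3 overlapped. Relative to *Dcn*, a matrix proteoglycan gene of fibroblasts, *Cxcl12* was not higher, at 0.283 to 0.332 times its FPKM in ACT + IL-2 and 0.249 to 0.329 times in ACT + NKTR-214. Of these markers, 5 rose (20.7% of all genes tested did), with summed levels of 172 to 515 and 453 to 918 FPKM that overlapped between the groups. Of 5 endothelial markers, *Pecam1* alone rose. The part of cell numbers in the 7 calls was not tested.

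**Figure D4:**
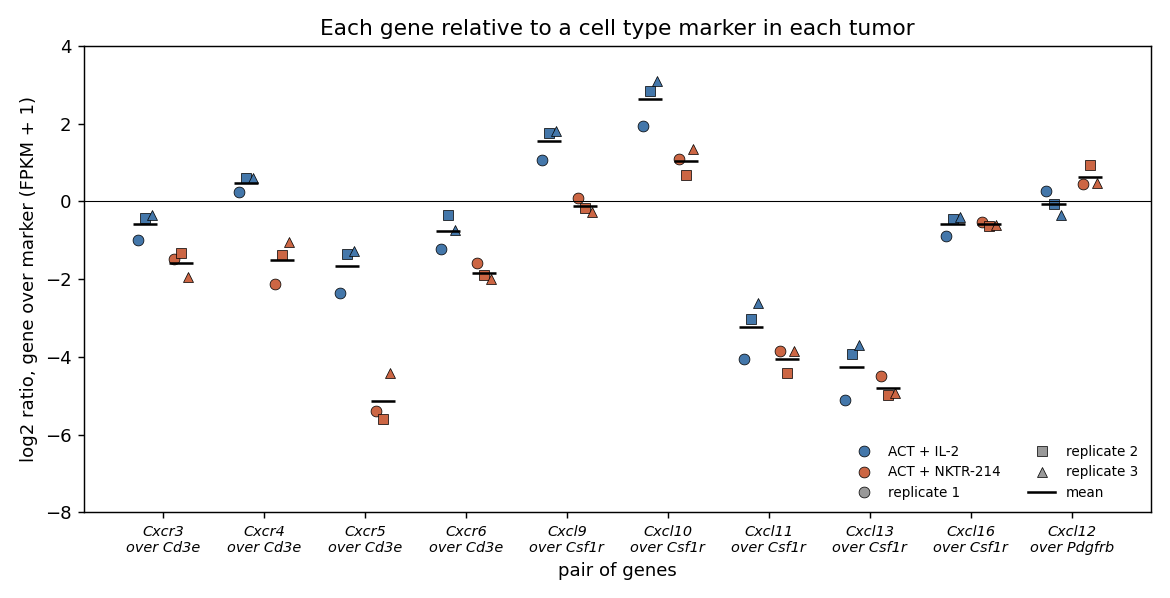
Log2 ratio of each gene to a cell type marker, each as FPKM + 1 (y axis), within each of the 6 tumors (x axis, gene over marker), with the mean of 3 tumors as a line. All 4 receptor genes are lower relative to *Cd3e* in ACT + NKTR-214, and *Cxcl16* over *Csf1r* overlaps between the groups. Other markers of the same lists gave other outcomes for 8 of the 10 genes, all but *Cxcr5* and *Cxcl9*.

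The remaining marker lists give the cell context of these values. Over all genes tested, 20.7% rose and 8.28% fell. Of 6 dendritic cell markers 5 rose (sums 7.81 to 12.7 and 20.5 to 35.6 FPKM), as did 3 of 3 tested neutrophil markers (3.71 to 8.99 and 20.9 to 47.7 FPKM). The NK cell and plasma cell lists split, and their genes are named here after their values were seen. Of 4 NK cell markers, *Klre1* and *Klrb1c* rose, from 0.549 ± 0.518 to 9.81 ± 4.004 FPKM and from 0.417 ± 0.219 to 3.69 ± 0.917 FPKM (SD, n = 3 each). *Ncr1*, the gene of the NK cell receptor NKp46, had 0.582 ± 0.313 and 0.672 ± 0.428 FPKM (SD, n = 3 each, limma adjusted p = 0.799), and *Klra8* had 0.122 and 0.127 FPKM on average (limma adjusted p = 0.977). The list sums were 0.887 to 2.94 FPKM in ACT + IL-2 and 8.33 to 18.8 FPKM in ACT + NKTR-214. In ACT + NKTR-214 they were mainly those of *Klre1* and *Klrb1c*, whereas in ACT + IL-2 *Ncr1* had the highest mean of the list. Of 3 tested plasma cell markers, *Sdc1* and *Xbp1* rose, both of which many other cells express, and they made up nearly all of the sums (33.7 to 47.1 and 63.2 to 85.0 FPKM). *Mzb1*, an endoplasmic reticulum protein gene of plasma cells, had 0.245 and 0.273 FPKM on average (limma adjusted p = 0.857), and the antibody joining chain gene *Jchain* had 0.0427 and 0.0197 FPKM and was not tested. Of 6 melanoma markers, 4 fell, with sums of 4172 to 5369 FPKM in ACT + IL-2 and 2058 to 2923 FPKM in ACT + NKTR-214. The melanocyte antigen gene *Mlana* had 711 to 849 and 382 to 535 FPKM and narrowly missed the threshold (limma adjusted p = 0.0526).

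Interferon-γ signaling genes were examined because this cytokine induces the CXCR3 ligands. Of 9 genes listed, 6 were higher and 0 were lower, where 20.7% of all genes tested were higher and 8.28% lower. The median log2 fold change of the list was 0.64. *Ifng* itself had 2.25, 1.05 and 1.46 FPKM in ACT + IL-2 and 7.83, 7.32 and 5.57 FPKM in ACT + NKTR-214 (log2 fold change 1.63, limma adjusted p = 8.3e-06). The ligand-binding receptor chain gene *Ifngr1* changed most within the list, by a log2 fold change of 2.35 (limma adjusted p = 1.9e-06), from 12.0 ± 4.01 to 65.7 ± 19.99 FPKM (SD, n = 3 each). The kinase gene *Jak1* and the feedback inhibitor gene *Socs1* had log2 fold changes of 0.87 and 0.87 (limma adjusted p = 0.00077 and 0.00225).

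*Ifngr2* and *Irf1* were among the 3 genes of this list that did not pass, and are named here after their values were seen. *Ifngr2*, the signal-transducing receptor chain gene, had a log2 fold change of 0.26 (limma adjusted p = 0.241). *Irf1*, an interferon-induced transcription factor gene, had 83.9, 66.0 and 61.3 FPKM in ACT + IL-2 and 60.3, 62.1 and 74.5 FPKM in ACT + NKTR-214, or a log2 difference of -0.093 (limma adjusted p = 0.724). *Irf8*, another interferon-induced transcription factor gene of the list, also named after its values were seen, rose. It had 28.7 to 42.7 FPKM in ACT + IL-2 and 44.0 to 54.0 FPKM in ACT + NKTR-214 with no overlap, or a log2 difference of 0.53 (limma adjusted p = 0.0265).

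Of 11 further receptors, ligands and processing enzymes of the axes, 5 rose and 0 fell (0 also at an unadjusted p under 0.05), and 3 rose without ACT + IL-2 replicate 2. In the fit of all tumors 20.7% of all genes tested rose and 8.28% fell. The median log2 fold change of the list was 0.26. The dipeptidyl peptidase gene *Dpp4*, whose product trims and inactivates CXCR3 ligands and CXCL12, had 0.983, 0.457 and 0.273 FPKM in ACT + IL-2 and 3.35, 4.34 and 2.06 FPKM in ACT + NKTR-214 (log2 fold change 1.42, limma adjusted p = 4.9e-05). *Pf4*, a platelet and macrophage chemokine gene, had 21.5, 5.41 and 10.9 FPKM and 45.8, 86.3 and 57.3 FPKM, or a log2 difference of 2.37 (limma adjusted p = 5.1e-05). *Ackr3*, the scavenger receptor of CXCL12 and CXCL11, rose with overlapping groups, from 3.28 ± 1.85 to 5.85 ± 1.42 FPKM (SD, n = 3 each, limma adjusted p = 0.0302). *Ackr1*, an atypical receptor of venules that binds many chemokines, rose from 0.519 ± 0.469 to 1.44 ± 0.455 FPKM (SD, n = 3 each, limma adjusted p = 0.00742). Neither scaling kept the call of *Ackr3* (limma adjusted p = 0.0869 and 0.103), and quantile normalization lost that of *Ackr1* (limma adjusted p = 0.0692).

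*Mif*, which encodes an alternative ligand of CXCR4 and has pseudogene copies that can share its reads, stood at 99.7 ± 16.9 and 87.1 ± 3.77 FPKM (SD, n = 3 each), and the groups overlapped (log2 fold change -0.18, limma adjusted p = 0.474). *Mif* was called lower under both other scalings, by a log2 fold change of -0.30 with the 75th percentile (limma adjusted p = 0.0134) and -0.32 with quantile normalization (limma adjusted p = 0.0165). Of all 14172 genes tested, 3864 and 4525 were lower under these scalings, against 1173 with FPKM as deposited. *Cd74*, the invariant chain gene whose product also binds MIF, rose from 702 ± 255 to 1750 ± 282 FPKM (SD, n = 3 each, limma adjusted p = 0.00482).

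Genes that transmit or end chemokine receptor signals rose in 13 of 16 cases and fell in 0, where 20.7% of all genes tested rose and 8.28% fell. The median log2 fold change of the list was 1.27. *Dock2*, which activates Rac in migrating lymphocytes, rose most in this list, by 2.58 on the log2 scale, from 1.13 ± 0.372 to 12.0 ± 3.54 FPKM (SD, n = 3 each, limma adjusted p = 2.3e-07). *Rgs1* and *Rgs16*, which shorten G protein signals of chemokine receptors, had log2 fold changes of 2.25 and 2.07 (limma adjusted p = 2.3e-06 and 4.8e-07). *Pik3cg*, the leukocyte PI3 kinase gene, rose from 1.26 ± 0.699 to 7.03 ± 1.51 FPKM (SD, n = 3 each, limma adjusted p = 5.9e-06). Most genes of this list are expressed broadly in leukocytes.

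Around *Cxcl13*, 9 of 12 listed lymphoid organization genes were tested, 7 rose and 0 fell, where 20.7% of all genes tested rose and 8.28% fell. Of the 7, *Cd40lg*, a costimulatory ligand gene of helper T cells, had 0.1005, 0 and 0 FPKM in ACT + IL-2 and 0.453, 0.459 and 0.135 FPKM in ACT + NKTR-214, so that it passed the filter on low values only through the group where it is high, and neither the count nor the list median is support for a rise of the list. The lymphotoxin gene *Lta* had 0.364, 0.221 and 0.242 FPKM in ACT + IL-2 and 3.84, 6.38 and 4.57 FPKM in ACT + NKTR-214, or a log2 difference of 2.195 (limma adjusted p = 1.03e-07). *Ltb*, its partner in membrane lymphotoxin, had a log2 fold change of 2.73, *Icos*, a costimulatory receptor gene, 2.075, and *Tnfsf11*, which encodes RANKL, 1.36 (limma adjusted p = 5.3e-06, 1.4e-06 and 1.5e-06). *Ccl19*, a lymphoid zone chemokine gene, and *Il21*, a follicular helper T cell cytokine gene, were too low to test. *Ccl21a* was listed at 0 in all tumors, but it has near-identical gene copies between which reads can be lost in counting, so its expression cannot be read from these values.

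Of 8 regulators of *Cxcl12* and *Cxcr4*, 3 rose and 1 fell, where 20.7% of all genes tested rose and 8.28% fell. No test set these counts against those shares. *Vcam1*, an adhesion molecule gene of stroma and endothelium, rose from 7.41 ± 3.98 to 20.1 ± 7.45 FPKM (SD, n = 3 each), *Klf2* from 8.43 ± 5.10 to 17.9 ± 4.78 FPKM and *Ebf1* from 0.787 ± 0.437 to 1.52 ± 0.510 FPKM, all with overlapping groups (limma adjusted p = 0.00207, 0.00775 and 0.0366). *Foxc1*, a transcription factor gene known to maintain *Cxcl12* in marrow stroma, fell from 8.07 ± 1.53 to 4.98 ± 1.22 FPKM (SD, n = 3 each, limma adjusted p = 0.0212). None of the 3 that rose passed without ACT + IL-2 replicate 2, and *Foxc1* did not pass without ACT + NKTR-214 replicate 2. *Ebf1* did not pass with either scaling (limma adjusted p = 0.0884 and 0.269). Without ACT + IL-2 replicate 1 or ACT + NKTR-214 replicate 3, 5 of the 8 rose. The median log2 fold change of the list was 0.32. Apart from *Foxc1*, 0 genes of the pathway lists were lower at an unadjusted p under 0.05.

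The genes most like each receptor gene were found by the Euclidean distance between centered log2(FPKM + 1) values over the 6 tumors, among 11550 genes with a mean of at least 1 FPKM. All points share these libraries, and a short distance mainly means a like difference between the groups. Nearest to *Cxcr3* were *Ltb*, *Cd27* and *Gimap6* (distances 0.332, 0.383 and 0.446). Nearest to *Cxcr6* were *Tigit*, *P2ry10* and *Cd226* (0.249, 0.317 and 0.334). Nearest to *Cxcr4* were *Pcolce2*, *Tnfsf13* and *Ctsk* (0.235, 0.26 and 0.316). *Cxcr5*, which hardly varied, lay nearest to *Surf6*, *Zfp84* and *Ppp1r10* (0.0607, 0.076 and 0.0767).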

How the data were processed

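RNA of 6 whole tumors was sequenced as single-end reads by the authors, who mapped them to GRCm38 with HISAT2 2.0.4 (version per the submitters' processing notes), obtained gene counts with HTSeq and deposited them as FPKM, not log-transformed. The gene annotation and library strand are not given in the sources used here. All columns were used. limma 3.58.1 in R 4.3.3 (lmFit, eBayes with trend) was fitted on log2(FPKM + 1) over genes with a mean of at least 0.1 FPKM. This scale understates changes of low genes. Depth was estimated from single-transcript genes of GENCODE vM21, in which 55.9 to 59.1% of low values lay within 0.05 reads of a whole number. Reads of *Cxcl11*, *Cxcl13* and *Cxcr5* came from the exon length, within 2% of an annotated transcript, that gave whole reads in every library, with exact intervals. Ratios were compared with exact permutation tests (scipy 1.17.1). Positions are from GENCODE vM21. The fit was run on simulated data with 200 changed genes, against 4113 genes called in the real data. It recovered 84 of 108 changes of 1 and 87 of 92 changes of 2 on the log2 scale, with 12 false calls. Changed genes were drawn at higher levels only, so low genes such as *Cxcl13* and *Cxcr5* were not covered. Alternatives were another pseudocount, other minimum levels, 75th percentile scaling, quantile normalization, eBayes without trend, no moderation, a replicate block and each tumor left out. Replicate numbers stand for different mice, and p-values measure the spread between these mice. The genes named outside the 10 were up to 4 per list by smallest adjusted p, other ligands or receptors of the axes, 3 genes most like each receptor and defining markers. The 10 genes, lists and tests were chosen with earlier results of these data known. The values of some listed genes are not reported here.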

Additional observations from a re-analysis of the deposited data

How the results depend on the processing

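The number of chemokine axis genes higher in ACT + NKTR-214 was 7, and 6 or 7 under each of 14 alternatives except the fit without variance moderation. It was 6 with a minimum mean of 1 FPKM, under which *Cxcl13* was not tested, and 6 without ACT + IL-2 replicate 2, where *Cxcl12* lost its call. Without moderation of the variance, 1 of the 10 genes (1 ligand gene, *Cxcl11*, and 0 receptor genes) was called, with adjusted p-values of 0.0465 to 0.158 for the 7. Of all 14172 genes tested, that fit called 101 higher and 27 lower, against 2940 and 1173 in the main fit. That fit also called 0 of the further receptors, ligands and enzymes, 0 of the signaling genes, 0 of the interferon-γ genes, 1 of the lymphoid organization genes and 0 higher and 0 lower among the *Cxcl12* and *Cxcr4* regulators. Of the further receptors, ligands and enzymes, 2 were higher with no minimum and 3 with quantile normalization, and 1, *Mif*, was lower with either scaling (75th percentile or quantile). These scalings called 3864 and 4525 of all 14172 genes lower. Of the regulators, 1 was higher and 0 were lower with no minimum. With 1 tumor left out, 3 to 5 of the further receptors, ligands and enzymes were higher (3 without ACT + IL-2 replicate 2), and 0 to 5 regulators were higher (0 without ACT + IL-2 replicate 2, 5 without ACT + IL-2 replicate 1 or ACT + NKTR-214 replicate 3) and 0 to 1 lower. The cause was not tested. The log2 fold change of *Cxcl9* ran from -0.23 to 0.17 and that of *Cxcl10* from -0.049 to 0.15 with 1 tumor left out. That of *Cxcl10* was -0.091 after 75th percentile scaling. Quantile normalization set it at -0.18, that of *Cxcr5* at -0.081 and the median of all genes at -0.098 (0.045 as deposited). Of 128 ratio values under alternatives, 6 turned sign. The *Cxcl13* to *Csf1r* difference was 1.14 and that of *Cxcl16* to *Csf1r* 0.00365 with a pseudocount of 0.1. With 1 tumor left out, *Cxcl16* to *Csf1r* ran from -0.17 to 0.071 and *Cxcr4* to *Cxcl12* from -0.023 to 0.31. Of 65 ratio values with another marker of the same list, added after the data were seen, 9 turned sign. These were *Cxcr3* (0.43 with *Cd5*, 1.89 with *Cd4*), *Cxcr4* (0.90 with *Cd4*), *Cxcr6* (0.36 with *Cd5*, 1.82 with *Cd4*), *Cxcl13* (0.11 with *Adgre1*), *Cxcl16* (0.65 with *Adgre1*, 0.11 with *Cd14*) and *Cxcl12* (-0.21 with *Dcn*). With the replicate number as a block, 7 of the 10 genes were again called higher, *Cxcr3* with a log2 fold change of 2.53. Deviations of same-numbered tumors correlated at -0.21, -0.067 and 0.40, so the numbers were not taken to pair the tumors. Depth limits *Cxcl13* in ACT + IL-2 and *Cxcr5* in both groups.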
